A study of Mus musculus with 28 samples.

Results

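ETn and MusD elements are mouse long terminal repeat retrotransposons of the ERVK class. They were taken here as every repeat family whose name contains ETn in any letter case, which gave 5 of the 539 families in the deposited repeat table. The internal regions were MMETn-int with 1965 genomic elements, ETnERV-int with 404, ETnERV2-int with 5884 and ETnERV3-int with 945. The fifth family, RLTRETN_Mm, is the long terminal repeat (LTR) that flanks such elements and had 2864 elements. Each value is summed over all copies of a family and does not show which of them were transcribed.

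ETn elements carry no coding genes of their own and move with proteins supplied in trans by MusD, their coding relative, and both families are known for recent insertional mutations in laboratory mice. MMETn-int covers ETn internal sequence, and ETnERV-int and ETnERV2-int are names under which MusD-related internal sequence is annotated. The LTR holds the promoter and the polyadenylation signal. In embryonic stem cells such elements are silenced when KRAB zinc finger proteins bring TRIM28, also called KAP1, which recruits the histone methyltransferase SETDB1 to deposit H3K9 trimethylation (H3K9me3). Primordial germ cells, the embryonic precursors of eggs and sperm, lose most DNA methylation in the fetal gonad, so histone-based silencing is of interest in them.

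The study measured RNA, H3K9me3 and H3K27me3 in SSEA1+ primordial germ cells sorted by FACS from male and female E13.5 gonads, and asked what loss of Setdb1 does there. Knockout (KO) cells carried a deleted (Δ) and a null (-) Setdb1 allele. Heterozygous cells were of 2 kinds, Δ/+ (Het1) and flox/- (Het2), where flox is the intact conditional allele, and wild-type (WT) cells of the cross were flox/+. Each sex had 2 KO, 2 Het1, 2 Het2 and 1 WT RNA library. H3K9me3 and H3K27me3 had 1 library each from flox/- Het and from KO cells of each sex, and total histone H3 (pan-H3) had 1 library from wild-type C57BL/6 male germ cells. For marker genes only, 1 RNA library of somatic gonadal cells from wild-type C57BL/6 males was used for both sexes. All RNA controls used in the tests carried 1 functional copy of Setdb1. The labels give neither the Cre line nor the number of embryos behind a library, so p-values measure the spread between libraries, which may be in part technical.

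Setdb1 RNA was 27.1 and 31.2 RPKM (read density per kilobase after scaling to the size of a library) in male KO libraries against 37.5 to 52.1 in male Het, and 34.7 and 31.3 in female KO against 38.2 to 58.9 in female Het. KO libraries were lower in both sexes, and the remaining RNA is not resolved by exon in a value per gene. The summed RPKM of 6 germ cell markers was 866 to 2050 across the libraries of the cross and 12.5 in that soma library. A pair of features runs through the RNA results. First, male WT and the male libraries numbered 2 were deposited with 3 decimals and all other libraries with 2, which splits male Het and KO libraries by replicate number. Whether the decimals mark a processing batch is not stated. Second, the RPKM summed over all repeat families was 90.9 to 107 in the 4 Het libraries numbered 1 and 139.5 to 205 in the 4 Het libraries numbered 2. In KO replicates 1 and 2 it was 173 and 163 in males and 147 and 181 in females. Comparisons of KO with Het among libraries numbered 1 thus also hold a difference in this sum.

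In heterozygous germ cells MMETn-int already had a high RPKM: its mean over the 8 Het libraries, 1.99 RPKM, was the highest of all 539 repeat families. RLTRETN_Mm followed at 0.370 RPKM (rank 89), then ETnERV-int at 0.283 (rank 146), ETnERV2-int at 0.184 (rank 293) and ETnERV3-int at 0.0804 (rank 484). RPKM is a read density per length, so these ranks do not order the families by their amount of RNA. The share of their sequence that reads can be placed on also differs. The deposited mappability was 0.85 for MMETn-int, 0.77 for ETnERV3-int, 0.75 for RLTRETN_Mm, 0.66 for ETnERV-int and 0.64 for ETnERV2-int.

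The control level of MMETn-int varied widely. In male Het1 it was 1.25 and 3.41 RPKM in replicates 1 and 2, and in male Het2 it was 2.03 and 3.41. In female Het1 it was 1.48 and 1.65 RPKM, and in female Het2 0.51 and 2.16. The replicate numbered 1 was the lower in each of the 4 pairs, and the highest Het library exceeded the lowest 6.69-fold. The other members spread less among the 8 Het libraries, from 2.79-fold for ETnERV-int to 4.42-fold for RLTRETN_Mm. WT germ cells had 3.59 RPKM of MMETn-int in the male and 2.14 in the female library, the first just above and the second within the range of the Het libraries of the same sex.

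None of the 5 members differed between the sexes in Het cells past an adjusted p of 0.05 in limma, where 0% of 528 families were called in either direction. Of these members 1, MMETn-int, had an unadjusted p under 0.05, against 18 of the 528 families. Its Het mean was 2.53 ± 1.07 RPKM in males and 1.45 ± 0.690 in females (SD, n = 4 each), a female minus male log2 difference of -0.80 (SE 0.39, limma adjusted p = 0.770). None of the 5 differed between Het1 and Het2 either (0% of 528 families called in limma, and 0 members at an unadjusted p under 0.05). The members' Het1 minus Het2 log2 differences were 0.03 to 0.14.

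**Figure D1:**
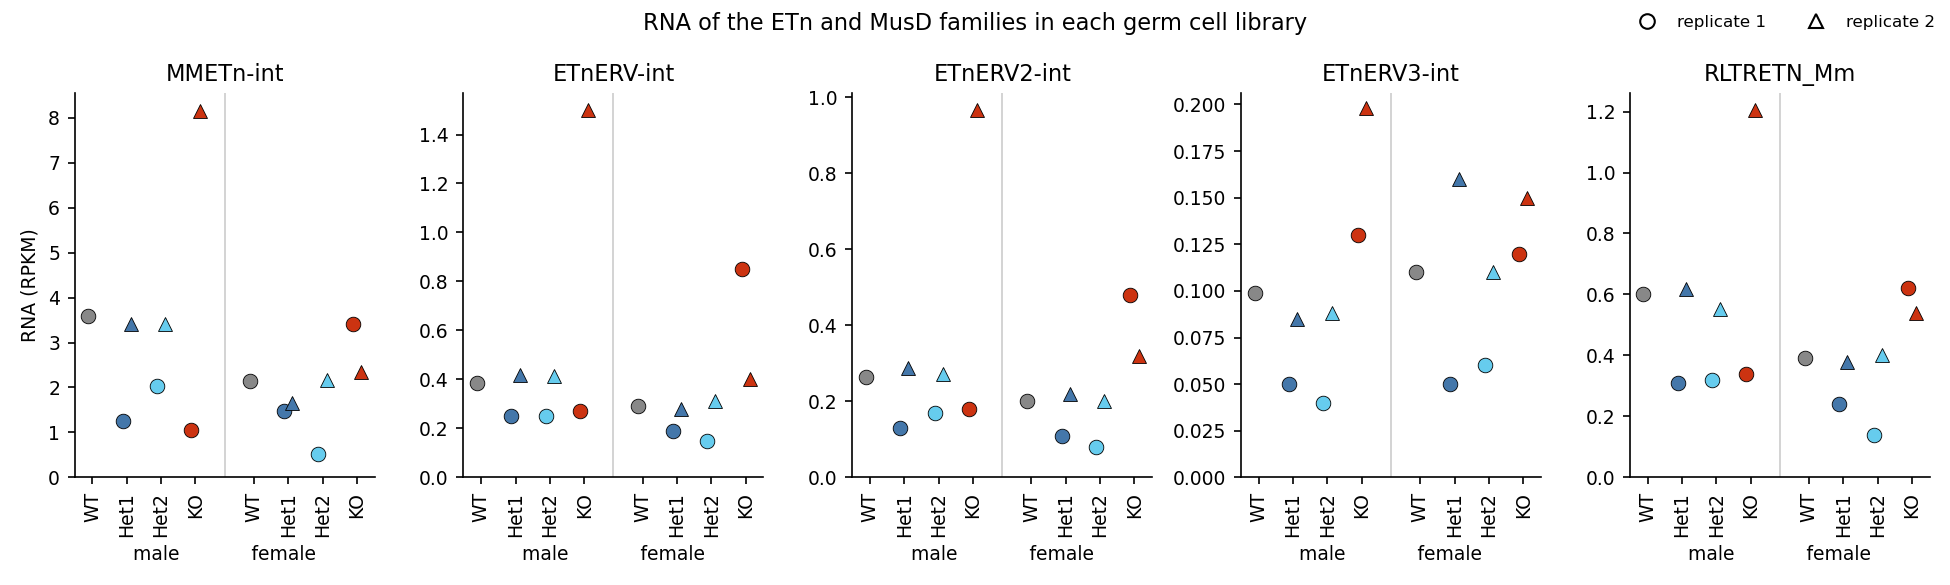
RNA level (RPKM, vertical axes from 0, one scale per panel) of each member in every germ cell library, with WT in grey, Het1 and Het2 in blues and KO in red; circles are replicate 1 and triangles replicate 2. Male KO replicate 2 is the highest library in all 5 panels, at 8.16 RPKM for MMETn-int, while male KO replicate 1 lies at 1.06.

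Loss of Setdb1 came with higher RNA of the MusD-related internal regions ETnERV-int and ETnERV2-int in the test over both sexes. Of the 5 members these 2 were called, both higher, against a background of 6.82% of 528 tested families called higher, and 0 were called lower. All 5 had a positive difference, as did 511 of the 528 families, so the sign alone sets no member apart. For all 5 p was under 0.05 before adjustment, against 74 of the 528 families. The median log2 difference of the members was 0.71 against 0.17 over all families tested. A bulk level cannot tell more RNA per cell from more cells that express the element.

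ETnERV-int RNA was 0.25 and 0.42 RPKM in male Het1, 0.25 and 0.41 in male Het2, and 0.27 and 1.5 in male KO. In females it was 0.19 and 0.28 in Het1, 0.15 and 0.31 in Het2, and 0.85 and 0.40 in KO. Both female KO libraries were above all 4 female Het libraries, whereas male KO replicate 1 lay among the male Het libraries. Over both sexes ETnERV-int rose by 0.97 on the log2(RPKM + 0.1) scale (SE 0.26, limma adjusted p = 0.0169), a scale that understates the change of low families.

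ETnERV2-int, the most numerous member, was 0.13 and 0.29 RPKM in male Het1, 0.17 and 0.27 in male Het2, and 0.18 and 0.97 in male KO. In females it was 0.11 and 0.22 in Het1, 0.08 and 0.20 in Het2, and 0.48 and 0.32 in KO. The groups again overlapped in males through KO replicate 1 and did not overlap in females. Over both sexes it rose by 0.92 on the log2 scale (SE 0.24, limma adjusted p = 0.0136).

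MMETn-int, the ETn internal region, was 1.06 and 8.16 RPKM in the male KO libraries and 3.41 and 2.35 in the female ones. The first male value was below all 4 male Het libraries and the second above them, and both female values were above all female Het libraries. The KO minus Het difference over both sexes was 0.71 log2 (SE 0.34, limma adjusted p = 0.313) and did not pass. RLTRETN_Mm, the LTR, was 0.31, 0.62, 0.32 and 0.55 RPKM in the male Het libraries and 0.34 and 1.21 in male KO. In females it was 0.24, 0.38, 0.14 and 0.40 in Het and 0.62 and 0.54 in KO, so that the groups overlapped in males and not in females. Its difference was 0.68 log2 (SE 0.25, limma adjusted p = 0.105).

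ETnERV3-int, the member with the lowest RPKM, had the opposite pattern of overlap. It was 0.04 to 0.09 RPKM in male Het and 0.13 and 0.20 in male KO, with no overlap, and 0.05 to 0.16 in female Het against 0.12 and 0.15 in female KO, with overlap. Its difference over both sexes was 0.49 log2 (SE 0.16, limma adjusted p = 0.0703). Its deposited values carry 1 or 2 significant digits, except 0.198 in male KO replicate 2, so their precision differs between libraries.

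The 2 calls depended on single libraries. Without male KO replicate 2, 0 members were called and the differences were 0.44 for ETnERV-int, 0.44 for ETnERV2-int and -0.00 for MMETn-int. Without male KO replicate 1, 4 members were called, with MMETn-int at 1.41 and RLTRETN_Mm at 1.08. Without female KO replicate 1 the ETnERV-int call was lost (0.74, adjusted p = 0.0763), and without female Het1 replicate 2 ETnERV3-int (0.56) and RLTRETN_Mm (0.74) also passed. Without male Het1 replicate 2 RLTRETN_Mm passed as well (0.76, adjusted p = 0.0466). Both calls were also lost after median centring of each library (0.77, adjusted p = 0.347 for ETnERV-int, and 0.72, adjusted p = 0.347 for ETnERV2-int), which moved the median of all families from 0.17 to -0.04.

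**Figure D2:**
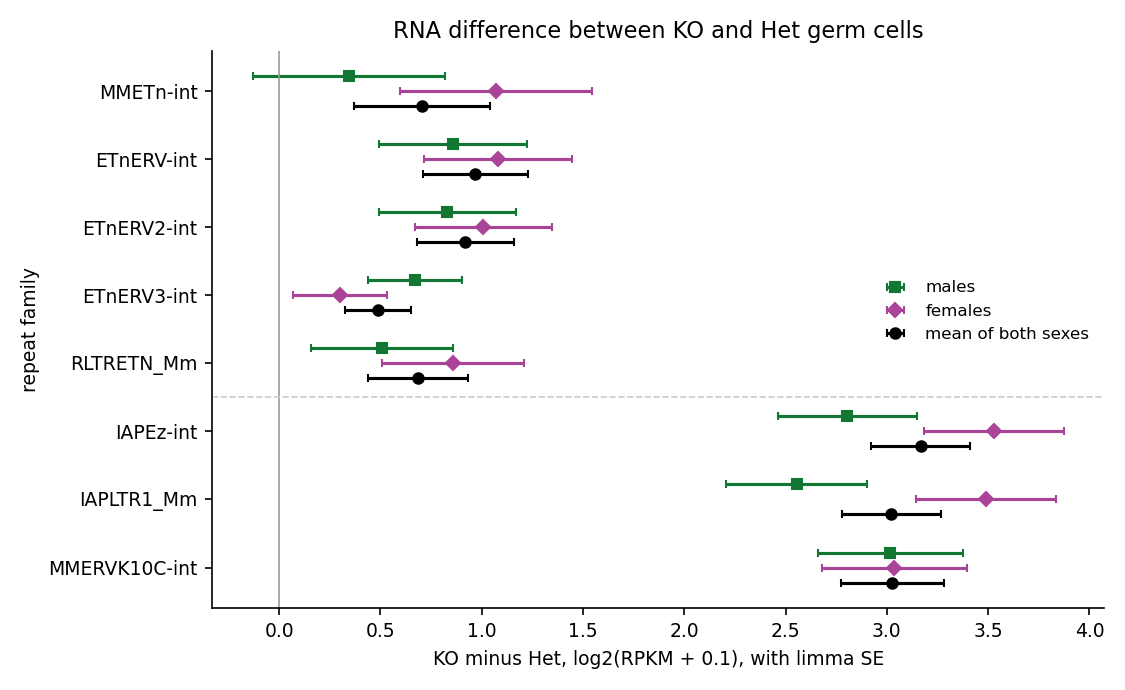
KO minus Het difference of RNA on the log2(RPKM + 0.1) scale (points) with the limma standard error (bars) in males, in females and as the mean of both sexes, for the 5 members above the dashed line and 3 reference families below it. The members' means over both sexes lie at 0.49 to 0.97 and the reference families' at 3.02 to 3.17.

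Within males 0 of the 5 members passed, against 2.46% of families called higher. For 3 members the limma p was under 0.05 before adjustment, against 52 of the 528 families. The mean RPKM was 0.885 ± 0.870 in KO (SD, n = 2) and 0.333 ± 0.0956 in Het (SD, n = 4) for ETnERV-int, and 4.61 ± 5.02 against 2.53 ± 1.07 for MMETn-int. The KO mean was 1.72-fold (RLTRETN_Mm) to 2.67-fold (ETnERV2-int) the Het mean. Only ETnERV3-int, 1 of 5, had both male KO libraries above all male Het libraries, where 34.5% of all families did.

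The 2 sets of male libraries, by decimals and so by replicate number, gave different values. Among libraries with 2 decimals, the KO minus Het log2 difference was 0.08 for ETnERV-int, 0.17 for ETnERV2-int, 0.67 for ETnERV3-int, -0.55 for MMETn-int and 0.08 for RLTRETN_Mm. Among libraries with 3 decimals it was 1.63, 1.49, 0.68, 1.23 and 0.93 in the same order. A higher male level of 4 members was thus seen mainly in the libraries with 3 decimals, and that of ETnERV3-int was of about the same size in both. Each set held 1 KO and 2 Het libraries, so no test was made within it. With the number of decimals as a term, added after the data were seen, the differences were the same and 4 of 5 members passed over both sexes (MMETn-int adjusted p = 0.0148), and again 0 in males.

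Within females 0 of 5 members passed, against 1.89% of families called higher. For 4 members the limma p was under 0.05 before adjustment, against 39 of the 528 families. In 4 of 5 members both KO libraries were above all Het libraries, against 9.47% of all families. The fold of the means was 2.69 for ETnERV-int, 2.62 for ETnERV2-int, 2 for RLTRETN_Mm, 1.99 for MMETn-int and 1.42 for ETnERV3-int. The largest log2 difference, that of ETnERV-int, was 1.08 (SE 0.37, limma adjusted p = 0.186), and it passed without female KO replicate 2 (1.54, adjusted p = 0.0192). Between libraries numbered 1 the log2 differences were 0.51 (ETnERV3-int) to 1.84 (MMETn-int), and between those numbered 2 they were 0.10 (ETnERV3-int) to 0.44 (ETnERV2-int).

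The KO effect did not differ between the sexes past the threshold for any member (0 of 5, 0% of 528 families, and 0 members at an unadjusted p under 0.05 in limma). The female minus male difference of effects was widest for MMETn-int, at 0.73 log2 (SE 0.67, limma adjusted p = 0.898). It was -0.37 for ETnERV3-int (SE 0.33, limma adjusted p = 0.898). Standard errors of 0.33 to 0.67 leave room for sizeable differences of either sign. For no member did KO exceed every Het library in males as well as in females, where 7.01% of families did.

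Some markers of gonadal somatic cells differed between KO and Het in the same libraries. All 5 Leydig cell markers were above all male Het libraries in both male KO libraries, with sums of 56.1 and 26.9 RPKM against 3.42 to 5.32, 19.8 in male WT and 674 in the C57BL/6 male soma library. None of the 5 was at 0 in a male KO library. Male KO replicate 1, with the larger Leydig sum, had the lower RNA of all 5 members. In females no Leydig marker separated the groups, but 2 of 3 stromal markers did, with sums of 25.0 and 23.5 in KO against 7.53 to 16.9 in female Het and 509 in the male soma library. The female Sertoli cell sum was 8.62 and 7.13 in KO against 4.45 to 5.51 in Het and 6.15 in WT. Of 4 Sertoli markers 1 was above all Het libraries, and Dhh was at 0 in a KO library. Of 3 endothelial and 3 pregranulosa markers 1 each was above all female Het libraries in both female KO libraries, with overlapping sums. In males 1 of 3 endothelial markers was, and in both sexes that endothelial marker was Kdr. Pecam1 made up most of the endothelial sum, at 15.3 to 59.4 RPKM in libraries of the cross and 3.77 in the soma library. That sum thus does not follow somatic cells. The same 2 of 3 stromal markers separated male KO (15.8 and 18.4) from male Het (6.76 to 13.2), with a sum of 15.4 in male WT. The germ cell sum of the female KO libraries, 866 and 1181 RPKM, was below that of the female Het libraries, 1274 to 1664. Of 6 germ cell markers only 2, Dazl and Ddx4, were below all female Het libraries in both female KO libraries, and the others overlapped. The share of all genes that separate KO from Het in this way was not computed, so these marker counts have no background. The part of these differences in the members' values was not tested.

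The IAP and MMERVK10C families, ERVK elements well known as targets of SETDB1, gave a scale for the members' response. IAPEz-int, the IAP internal region, differed by 3.17 log2 over both sexes (SE 0.24), its LTR IAPLTR1_Mm by 3.02 (SE 0.25) and MMERVK10C-int by 3.03 (SE 0.25), with limma adjusted p from 3.16e-13 to 1.51e-12. Of 15 tested IAP families 11 were called higher, and of 9 MMERVK10C and RLTR10 families 7. The median log2 difference was 0.59 and 0.66 in those groups, close to the members' 0.71, so the gap lay in the leading families rather than in the medians.

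Every member differed less between KO and Het than IAPEz-int and MMERVK10C-int. Both reference families had among the lowest limma adjusted p of all families tested in these same libraries. Most families would differ less than they did, so the test below gives the size of the gap and sets no member apart. The log2 ratio of the member to the reference family in each library fell from Het to KO by 2.06 (ETnERV-int against MMERVK10C-int) to 2.68 (ETnERV3-int against IAPEz-int). All 10 pairs passed an exact permutation test of genotype within sex, in both directions (225 arrangements, smallest possible p 0.00444), with adjusted p from 0.00741 to 0.0222 over the 10 pairs. Without male KO replicate 1, 8 of 10 passed. The differences of ETnERV-int and of MMETn-int from MMERVK10C-int were then -1.03 and -1.11. Without female KO replicate 2 that of MMETn-int, at -1.87, did not pass.

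In heterozygous cells MMETn-int exceeded IAPEz-int 2.55-fold to 13.2-fold in RPKM, in all 8 libraries. In KO cells the ratio was 0.475 and 2.46 in males and 0.553 and 1.04 in females. MMETn-int ranked first of all families in 5 of the 8 Het libraries and in male KO replicate 2, and 12th, 3rd and 3rd in the other KO libraries.

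**Figure D3:**
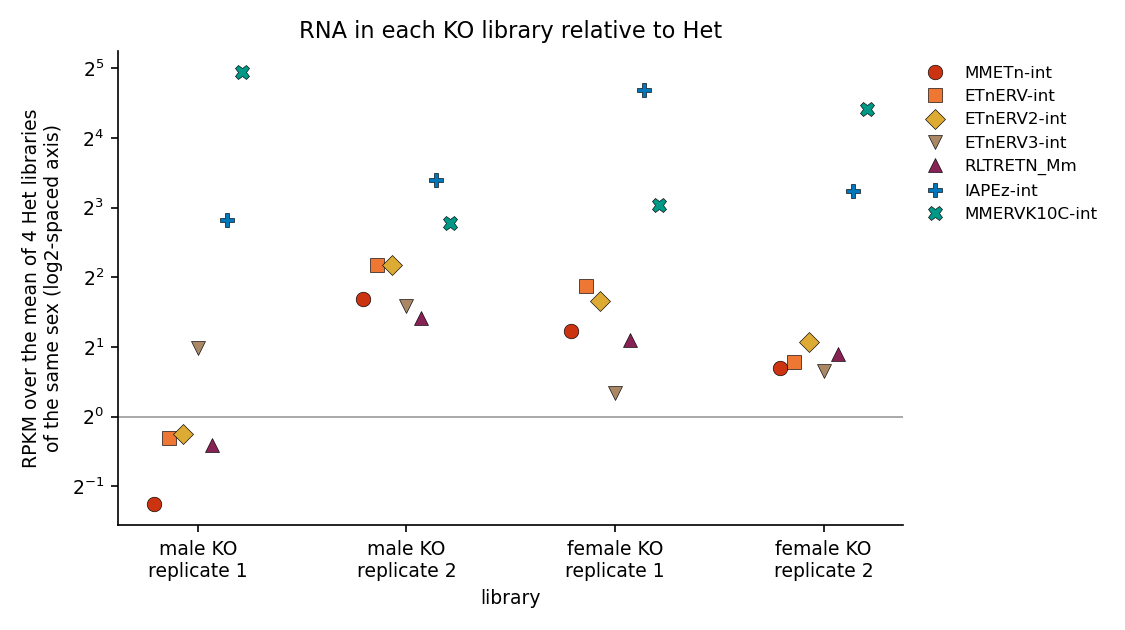
RPKM of each member, of IAPEz-int and of MMERVK10C-int in each of the 4 KO libraries, divided by the mean of the 4 Het libraries of the same sex (log2-spaced axis, line at 1). IAPEz-int and MMERVK10C-int are above 1 in all 4 libraries, at 6.89-fold or more, and 4 of the 5 members are below 1 in male KO replicate 1.

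The KO libraries ranked the families differently. In male KO replicate 1 MMERVK10C-int was 30.8-fold the male Het mean, while ETnERV-int was 0.811-fold and MMETn-int 0.420-fold. In male KO replicate 2 MMERVK10C-int was 6.89-fold, ETnERV-int 4.51-fold and MMETn-int 3.23-fold. In female KO replicate 1 the same families were 8.22-fold, 3.66-fold and 2.35-fold the female Het mean, and in female KO replicate 2 21.3-fold, 1.72-fold and 1.62-fold. In each sex the library with the higher MMERVK10C-int level was the one with the lower ETnERV-int and MMETn-int levels. IAPEz-int was 7.09-fold and 10.5-fold in the male libraries and 25.7-fold and 9.42-fold in the female ones, higher in each sex in the library with the higher ETnERV-int. With 4 libraries this is a description.

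The members did not differ from each other in the size of their response past the threshold (0 of 10 pairs, exact permutation test as above, 1 pair at an unadjusted p under 0.05). The lowest exact permutation p was that of ETnERV2-int against RLTRETN_Mm, 0.24 log2 higher (p = 0.0444, adjusted p = 0.422). Across the 12 Het and KO libraries, which share genotype and scaling effects, ETnERV-int and ETnERV2-int varied together (Pearson r = 0.985 of log2 values), as did MMETn-int and the LTR RLTRETN_Mm (r = 0.954). ETnERV3-int was less like the others, at r = 0.510 to 0.742.

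Among 523 other tested families, those most like ETnERV-int and ETnERV2-int over the same 12 libraries were RLTR13D6 (r = 0.869 and 0.891), MMERGLN-int (0.835 and 0.886), RLTR1B (0.831 and 0.876), RLTR9C (0.814 and 0.858) and RLTR9E (0.834 and 0.839). MMERGLN-int, the internal region of an ERV1 family, was also the most like RLTRETN_Mm (r = 0.885), followed by RLTR1B, RLTR9C, RLTR13D6 and LTR84b. MMETn-int was most like RLTR19-int (r = 0.765), then MMERGLN-int (0.750), LTR84b (0.712), RLTR1B (0.691) and RLTR9C (0.661). ETnERV3-int was most like RLTR13A (r = 0.976), RLTR45, RMER16-int, RLTR9D and RLTR13C1 (0.926), all ERVK families. Low families share the offset of a whole library on this scale.

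H3K9me3, the mark made by SETDB1, was above total H3 over all members in male germ cells. The Het H3K9me3 level divided by the pan-H3 level of wild-type C57BL/6 cells was 6.32 for ETnERV-int, 5.36 for MMETn-int, 5.09 for RLTRETN_Mm, 5 for ETnERV2-int and 4.17 for ETnERV3-int. These ratios ranked 35th to 60th of 539 families. Total H3 in KO cells was not analysed here, so the KO level of a mark could not be set against KO nucleosome density.

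In KO cells H3K9me3 was lower over all 5 members in both sexes, against 100 of 539 families lower in both sexes. Those 100 held all 16 IAP and all 9 MMERVK10C and RLTR10 families. Over MMETn-int it was 0.75 RPKM in male Het and 0.48 in male KO, and 0.72 and 0.51 in females, so that KO retained 64.0% and 70.8% of the Het level. ETnERV-int had 1.20 RPKM in male Het and 0.81 in male KO, and 1.08 and 0.77 in females, retaining 67.5% and 71.3%. The 2 sexes thus gave losses of similar size for both regions.

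Over ETnERV2-int the level was 0.75 RPKM in male Het and 0.51 in male KO, and 0.72 and 0.56 in females. Over the LTR RLTRETN_Mm it was 1.12 and 0.90 in males and 1.08 and 0.72 in females, the smaller loss in males and the larger in females. The smallest differences were those of ETnERV3-int, at 0.50 RPKM in male Het and 0.41 in male KO and at 0.52 and 0.49 in females, where KO kept 82.0% and 94.2%.

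With 1 library per sex and genotype, a change was first judged by size. No member reached a 2-fold difference in both sexes, and neither did any of the 102 families with enough signal (0%). The members' median log2 difference was -0.48 in males and -0.43 in females, against 0.14 and 0.05 over all families, -0.17 and -0.36 over IAP families and -0.26 and -0.39 over MMERVK10C and RLTR10 families. Ordered by the mean of the sexes from the largest loss, MMETn-int was 4th of 539 families, ETnERV-int 6th, RLTRETN_Mm 13th, ETnERV2-int 16th and ETnERV3-int 86th. MMERVK10C-int was 42nd and IAPEz-int 67th, and the difference between families was not tested.

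A limma fit with sex as a term called 4 of 5 members lower, against 4.66% of 536 families called lower and 15.3% called higher. The values were -0.49 for MMETn-int (SE 0.12, limma adjusted p = 0.00159), -0.48 for ETnERV-int (SE 0.14, adjusted p = 0.00770), -0.40 for ETnERV2-int (SE 0.12, adjusted p = 0.0113) and -0.41 for RLTRETN_Mm (SE 0.14, adjusted p = 0.0237). ETnERV3-int did not pass (-0.15, adjusted p = 0.292). The fit has 1 residual degree of freedom and uses 1 spread shared by families of like level, so these p-values have no replicate of a sex behind them. With a pseudocount of 0.5 RPKM only MMETn-int and ETnERV-int passed.

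**Figure D4:**
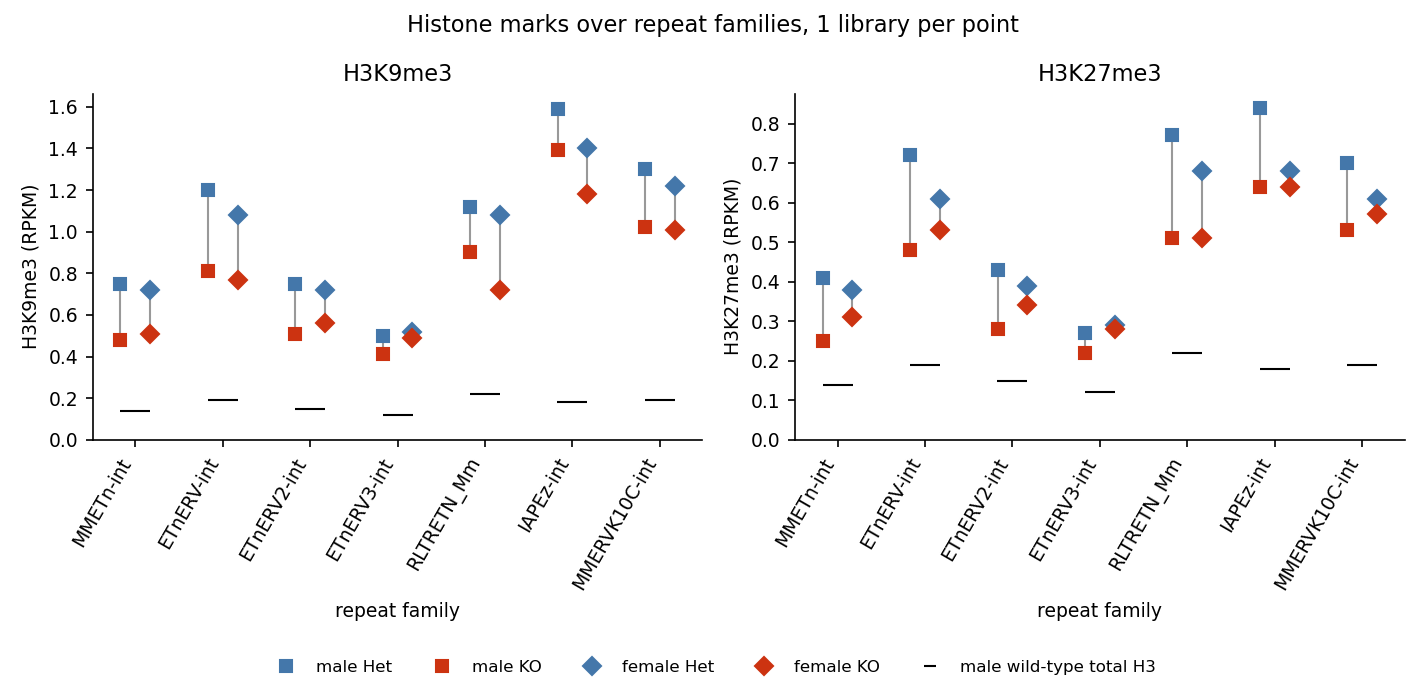
H3K9me3 (left) and H3K27me3 (right) in RPKM over the members, IAPEz-int and MMERVK10C-int, with Het in blue, KO in red, males as squares and females as diamonds, each point being 1 library; black dashes show total H3 of wild-type male germ cells. Every KO point lies below its Het point, from 0.75 to 0.48 RPKM of H3K9me3 over MMETn-int in males.

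H3K27me3, the mark of Polycomb repressive complexes, was also lower in KO over all 5 members in both sexes, as it was over 125 of 539 families, among them all 16 IAP and all 9 MMERVK10C and RLTR10 families. Over MMETn-int it was 0.41 RPKM in male Het and 0.25 in male KO, and 0.38 and 0.31 in females. Over ETnERV-int it was 0.72 and 0.48 in males and 0.61 and 0.53 in females. Over RLTRETN_Mm it was 0.77 and 0.51 in males and 0.68 and 0.51 in females. In males the KO level was 61.0% to 81.5% of Het over the members, and in females 75.0% to 96.6%. The male difference was also the lower one in other families: the median log2 difference was -0.04 in males and 0.06 in females over all families, -0.35 and -0.21 over IAP families, -0.36 and -0.23 over MMERVK10C and RLTR10 families, and -0.50 and -0.17 over the members.

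None of the members was 2-fold lower in both sexes (0% of 66 families with enough signal, among them 2 members). By limma with sex as a term 4 of 5 were lower, against 10.9% of families called lower and 0% higher. The same fit called 8 of 9 MMERVK10C and RLTR10 families and 7 of 16 IAP families lower. The differences were -0.43 for RLTRETN_Mm (SE 0.07), -0.39 for MMETn-int (SE 0.06), -0.34 for ETnERV-int (SE 0.06) and -0.32 for ETnERV2-int (SE 0.06), with limma adjusted p from 3.90e-08 to 8.03e-06 under the shared spread described above. ETnERV3-int was at -0.12 (adjusted p = 0.722). After median centring only RLTRETN_Mm passed, with ETnERV-int, ETnERV2-int and MMETn-int at adjusted p of 0.108, 0.110 and 0.0801. Their differences after centring, -0.35, -0.33 and -0.40, were close to those before it.

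**Figure D5:**
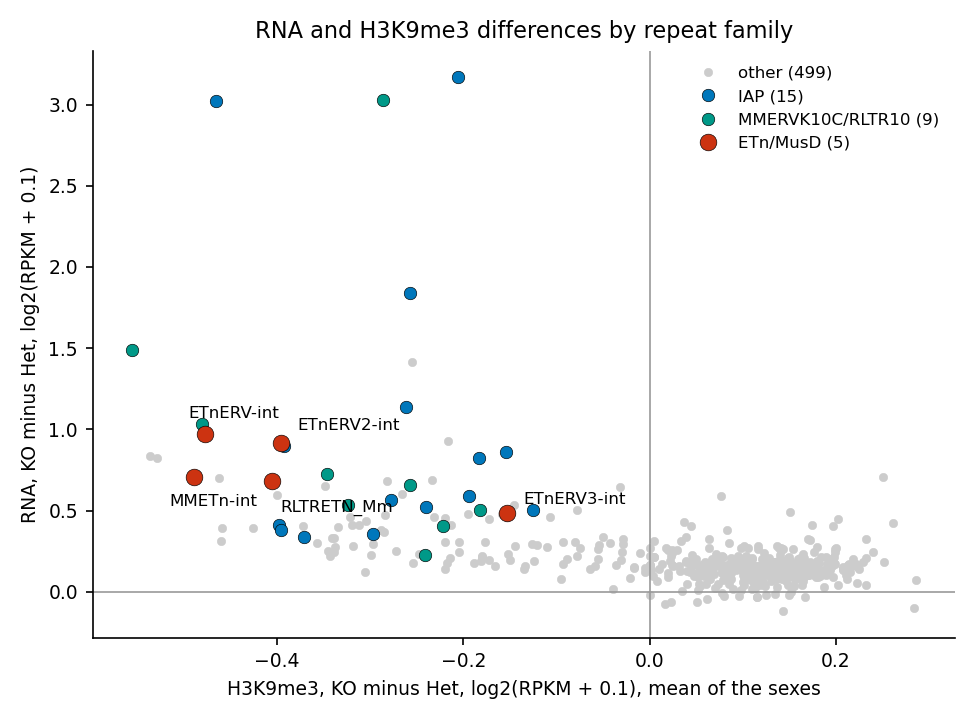
RNA difference (KO minus Het over both sexes, vertical) against H3K9me3 difference (mean of the sexes, horizontal), both on the log2(RPKM + 0.1) scale, for 528 repeat families with members in red, IAP in blue and MMERVK10C with RLTR10 families in green. MMETn-int sits at -0.49 for H3K9me3 and 0.71 for RNA, while IAPEz-int sits at -0.21 and 3.17.

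Set side by side, the mean H3K9me3 losses of 4 members were larger than that of IAPEz-int and that of ETnERV3-int was smaller, and the RNA differences of all 5 were smaller. IAPEz-int retained 87.4% and 84.3% of Het H3K9me3 in males and females and differed by 3.17 log2 in RNA, while MMETn-int retained 64.0% and 70.8% and differed by 0.71. IAPLTR1_Mm retained 74.9% and 67.4%, near RLTRETN_Mm at 80.4% and 66.7%, with RNA differences of 3.02 and 0.68. The RNA and histone libraries are separate samples, and their relation was not tested.

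Of 36 genes listed for the silencing of such elements, 35 were tested and none passed over both sexes, against 1.01% of 13518 genes called higher and 0.0296% lower, and for 8 the limma p was under 0.05 before adjustment. The list holds SETDB1 and TRIM28 partners, the HUSH complex, other H3K9 methyltransferases, histone chaperones, DNA methylation factors and piRNA factors. Setdb1 differed by -0.54 log2(RPKM + 1) (SE 0.13, limma adjusted p = 0.0783). Trim28, the adaptor that brings SETDB1 to ETn and MusD in stem cells, was at 0.00 (SE 0.21, limma adjusted p = 0.998). The list's median was 0.00 against 0.05 over all genes, with single genes from -0.54 (Setdb1) to 1.02 (Tdrd9). Of the 8 genes, Setdb1 and Ddx4 were lower in KO and the others higher. The share of all genes with such a p is not given here.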

How the data were processed

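RNA and histone mark levels per repeat family, and RNA levels per Ensembl gene, were deposited by the authors as RPKM, per the file headers. The deposited table also gives the count of elements of each family and its mappability as a fraction. Reads were aligned with BWA to mm9, per the submitters' processing notes. Not given in the sources used here: tool versions, the repeat annotation, the handling of reads with many matches and how mappability was computed. Depth is unknown, so no counting intervals were computed. Soma and C57BL/6 germ cell repeat RNA were not analysed here.

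Families at 0.1 RPKM or more in at least 2 of 12 Het and KO libraries (all 5 members, 528 of 539) were tested on log2(RPKM + 0.1) with limma 3.58.1 in R 4.3.3 (trend, 4 group means, Benjamini-Hochberg over all families, threshold 0.05). Genes used log2(RPKM + 1) and a minimum of 1 RPKM. Histone libraries were compared by a 2-fold rule (0.5 RPKM or more, pseudocount 0.1) and by limma with sex as a term. Response differences used exact permutation within sex (Python 3.11.15), and the fits were tested on simulated data. Alternatives changed the pseudocount, filter, scaling, controls, replicate block and single libraries. Named families are all members, 3 reference families and the 5 families most correlated with each member. The members and lists were chosen with earlier results of these data known.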

Additional observations from a re-analysis of the deposited data

How the results depend on the processing

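The count of members called over both sexes, 2 of 5, was the least stable. It was 0 under a filter of 1 RPKM, which left only MMETn-int to test, 0 after median centring, 0 after quantile normalization, and 0 with Het1 alone as control, where fewer libraries gave nearly the same differences (0.95 for ETnERV-int and 0.90 for ETnERV2-int). It was 4 with the number of decimals as a term and 0 with the Het libraries numbered 2 alone as controls, both chosen after seeing the data. Leaving out 1 library at a time gave 0 to 4. In males the count was 0 and in females 0. Leaving out 1 library gave 0 to 2 in males and 0 to 1 in females, Het2 alone gave 1 in females, and the decimals term 3 in females. Among all 528 families tested, 36 were called higher, 18 after median centring and 9 with Het1 alone, and quantile normalization gave 17 higher and 5 lower. The filter of 1 RPKM left 12 families to test, of which 5 were called higher, a larger share.

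With the replicate block the counts were 5 over both sexes, 3 in males and 4 in females, and 64 families were called over both sexes. Deviations of same-numbered libraries correlated at -0.14 to 0.67 over 15 pairs of groups, above 0.1 in 13 of them. The labels do not say what a number marks and there are only 2 numbers, so the fit without the block is the one reported.

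H3K9me3 calls went from 4 to 2 with a pseudocount of 0.5 RPKM, and H3K27me3 calls from 4 to 1 after median centring. Silencing genes called went from 0 to 1 after median centring (Setdb1), 1 with the replicate block (Mov10l1) and 0 to 2 with 1 library left out (Morc2a and Setdb1, without female Het2 replicate 1). Pairs with the reference families ranged from 8 to 10 with 1 library left out, and a pseudocount of 1 RPKM left 8. The causes were not tested. No called value changed sign. KO had 2 libraries per sex, and values under about 0.1 RPKM are limited by rounding.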

Other observations

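The proportions between members also varied by library. In RPKM, MMETn-int was 5 to 8.27 times ETnERV-int in male Het libraries, 9.31 times in male WT, and 3.93 and 5.44 times in male KO. In females it was 3.40 to 7.79 times in Het, 7.38 times in WT, and 4.01 and 5.88 times in KO. The male KO ratios thus spanned the lower end of the Het range and below it, and the female KO ratios lay within the Het range. Against the LTR RLTRETN_Mm, MMETn-int was 3.64 to 6.34 times as high in the 8 Het libraries and 3.12 to 6.77 times in the 4 KO libraries.

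In female Het2 replicate 1 MMETn-int, at 0.51 RPKM, was 28th among all families, where it was 1st to 3rd in the other 7 Het libraries.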
